A study of Arabidopsis thaliana with 9 samples.

Results

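The transcripts of siFIE seedlings were compared with those of wildtype Col. FIE is a core subunit of Polycomb Repressive Complex 2 (PRC2), and siFIE plants carry an RNAi construct that silences it. The comparison used 6 of the 9 NimbleGen expression arrays of the series, 3 arrays titled siFIE and 3 titled col, and covered all 30361 genes of the array. The other 3 arrays, of the clf-7swn-28 mutant, stayed out of the contrast but added to the estimate of the spread, and a few genes are also compared between siFIE and clf swn where this is said. Each array held total RNA of a pool of 10 to 12 whole seedlings, aged 12 days and grown at 22 °C in 16 h of light and 8 h of darkness. The siFIE pools were made of T1 plants selected on kanamycin at 50 mg per litre, and only plants of the intermediate phenotype were taken, so each pool may hold several insertion events. The sample labels place the siFIE plants in the C24 ecotype, whereas the methods of the study place them in Col, and no C24 wildtype was on the arrays. Ecotype, kanamycin selection and the RNAi construct cannot be told apart in the values below. Whole seedlings were extracted, so more cells of a type and more RNA per cell cannot be told apart either. Replicates are separate pools, and p-values measure the spread between pools.

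PRC2 places the H3K27me3 mark on chromatin, and genes that carry the mark are mostly silent. The complex holds a histone methyltransferase (CLF, SWN or MEA in Arabidopsis), a zinc finger protein (EMF2, VRN2 or FIS2) and the WD repeat proteins FIE and MSI1. In seedlings it is best known for keeping the genes of flowers, embryos and seeds silent until they are needed, and for the repression of FLC after winter.

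Medians of the RMA signal ran from 1116 to 1169 over the 9 arrays. RMA is a summary of the probes of a gene after background correction and normalization, and it is given here on a linear scale with no unit. Pearson's r of the log2 signals over genes was 0.992 to 0.994 among Col arrays, 0.991 to 0.993 among siFIE arrays and 0.970 to 0.978 between Col and siFIE arrays. The log2 signals were fitted with limma, and calls required both more than 2-fold and a Benjamini-Hochberg adjusted p below 0.05 over all genes, which is the p given throughout. Of the 30361 genes, 2338 were called in siFIE (7.70%), 1370 of them up-regulated (4.51%) and 968 down-regulated (3.19%). Starting from the probe signals without background correction, 683 (2.25%) and 443 (1.46%) were called, and 682 of these 683 were also called by RMA. The number of arrays limits the precision of each value.

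**Figure D1:**
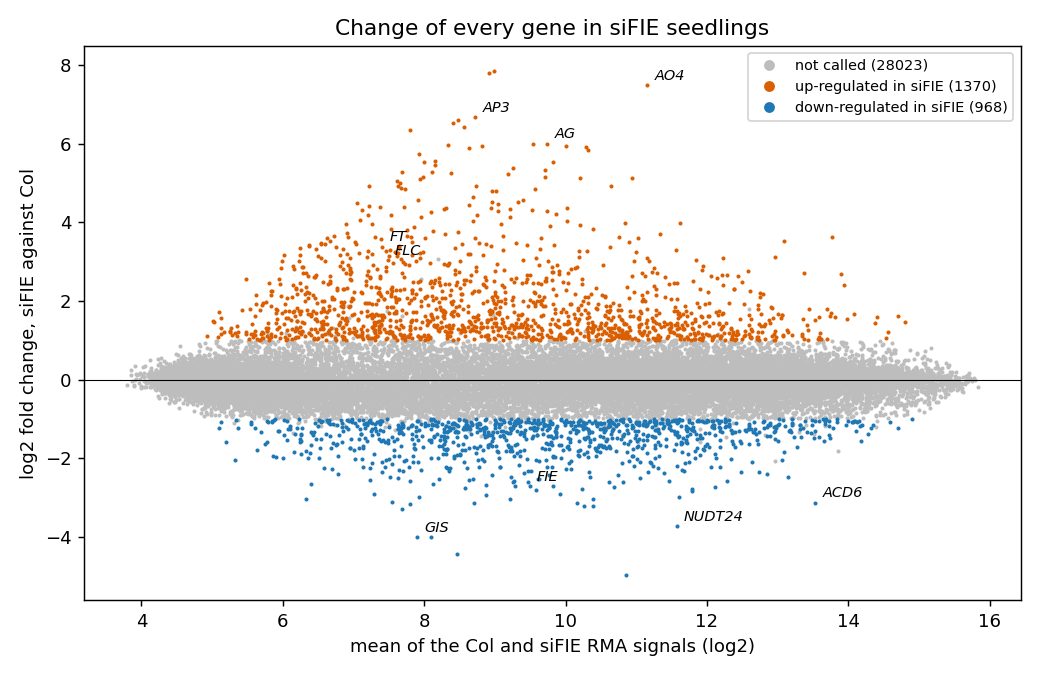
Each point is 1 of 30361 genes, with the mean log2 RMA signal of Col and siFIE on the x axis and the log2 fold change of siFIE against Col on the y axis. The 1370 up-regulated genes reach further from 0 than the 968 down-regulated ones, with AO4, AP3 and AG among the highest and GIS, NUDT24 and ACD6 among the lowest.

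The RNAi target was examined before the rest. RMA signals of FIE were 1976, 1768 and 1786 in Col and 244, 281 and 321 in siFIE, so all siFIE pools lay below all Col pools (log2 change -2.72, SE 0.12, adjusted p = 1.4e-06). The array carries 3 probes for FIE, which did not move together. The probe at position 357 of the target sequence gave scanner signals of 2925, 4728 and 2458 in Col and 462, 491 and 420.1 in siFIE. That at position 1204 gave 1710.1, 2873 and 1783 in Col and 496, 736 and 637 in siFIE. The probe at position 125 went the other way, from 318, 439 and 331 in Col to 2462, 1866 and 1709 in siFIE. Whether that probe lies within the RNAi construct was not tested. Starting from the probe signals, FIE was not called in any of the 3 settings tried. The label that names siFIE is therefore borne out by the probes at 357 and 1204 and not by that at 125.

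Of the other 7 subunits of PRC2 on the list, MEA alone was called. With FIE included, 12.5% of the list were up-regulated and 12.5% down-regulated, against 4.51% and 3.19% of all genes. In a list this small 1 call in a direction lies near those shares. CLF gave 11774, 12348 and 10798 in Col and 11825, 11308 and 9857 in siFIE. SWN gave 11186, 11516 and 11643 in Col and 11743, 11524 and 12247 in siFIE. Neither methyltransferase gene was called. EMF2, VRN2 and MSI1 were also not called, with log2 fold changes of -0.11, 0.08 and -0.26. FIS2, a gene of the seed, had signals under 100 in all 6 pools. MEA, a methyltransferase gene of the endosperm, was near the floor of the array in Col at 34.4, 39.2 and 31.9 and gave 155, 272 and 233 in siFIE (log2 change 2.61, SE 0.33, adjusted p = 5.4e-04), but without background correction its change was 1.63-fold and not called. Among 11 genes of PRC1 and its partners, 2 were up-regulated. EMF1, a plant Polycomb protein, rose from 9528, 9896 and 9146 to 25907, 29600.0 and 27656 (log2 change 1.54, SE 0.11, adjusted p = 2.2e-05). VIN3, which acts with PRC2 at FLC during cold, rose from 68.2, 61.8 and 45.6 to 456, 599.7 and 654 (log2 change 3.29, SE 0.20, adjusted p = 6.5e-06). LHP1, RING1A, RING1B and BMI1A, which act downstream of the mark, were not called.

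Some of the genes that rose in siFIE lie under peaks where the study found FIE-HA, a tagged FIE protein, together with H3K27me3. Of 673 genes of the array under such peaks, 154 were up-regulated and 45 down-regulated, beside 4.51% and 3.19% of all genes. Stretches of 30 bases are shown for 6 up-regulated genes, picked from the named genes whose peaks held a GA repeat. Named genes under a peak without such a repeat are not shown. Motifs of this kind bind GAGA factors, proteins proposed to have a role in recruiting Polycomb complexes in Drosophila. The sequences come from the peak table of the study (TAIR9 build), are written 5′ to 3′, and carry the longest GA repeat in capitals. The strand of that table is not given. AP3 and SEP1 specify floral organs, ABI3 acts in seed maturation, BOP1 and PNY in boundaries and stems of the shoot, and JAZ10 in jasmonate signalling.
AP3, chr3:20121081-20121110, reverse complement of the table: agattaaacaaaGAGAGAagaatatggcga
SEP1, chr5:5153556-5153585, strand of the table: ctgataaagagtGAGAGAgttgtttacttt
JAZ10, chr5:4218958-4218987, reverse complement of the table: attagaaagtGAGAGAGAGAtcaagacaga
ABI3, chr3:8997855-8997884, reverse complement of the table: ctagattggtgGAGAGAGAaaagttagggt
BOP1, chr3:21147622-21147651, reverse complement of the table: gatgaagaaGAGAGAGAGAGActatagtgt
PNY, chr5:395685-395714, reverse complement of the table: gaagaagaaGAGAGAGAGAGAgtaacagtg
The copy of the table at hand is not the whole table and cuts most sequences after 399 bases. Among the 654 peaks with that many bases, 303 (46.3%) held GAGAGA on either strand, and of the 155 with a gene up-regulated in siFIE it was 75 (48.4%), against 214 (44.6%) of 480 with genes on the array and none up-regulated. For AAACCCTA, the telo box, the numbers were 122 (18.7%) and 33 (21.3%), against 86 (17.9%) of the 480. A match is a description of these letters only. None of the 7 genes of the BPC family, plant GAGA-binding factors, was called in siFIE, against 7.70% of all genes, and a count of 0 among so few lies near that share. Their log2 fold changes lay between -0.22 and 0.15.

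The rises in siFIE were larger than the falls. More than 8-fold rises numbered 177 and falls 16, more than 16-fold 73 and 4, and more than 32-fold 34 and 0. Without background correction these counts were 34 and 2, 9 and 0, and 1 and 0. The median change was 3.04-fold for up-regulated and 2.53-fold for down-regulated genes. Up-regulated genes were dim in wildtype, with a median RMA signal of 214 in Col against 1512 for down-regulated and 1124 for all genes. In 1363 of the 1370 up-regulated genes every siFIE pool lay above every Col pool, as in 18.4% of all genes, and in 966 of the 968 down-regulated genes every siFIE pool lay below, as in 19.2%. In 1339 of the up-regulated genes all probes rose, as in 30.4% of all genes, and in 961 of the down-regulated genes all probes fell, as in 34.6%. The calls were made on these same arrays, so the high shares among called genes follow largely from the call and are no separate evidence. No gene of the chloroplast (67 on the array) or the mitochondrion (94) was called, against 7.70% of all genes. Of 3815 pseudogenes, which include many transposons, 15 were up-regulated (0.393%) and 40 down-regulated (1.05%), against 4.51% and 3.19% of all genes. Of 599 transcribed pseudogenes 12 were up-regulated (2.00%) and 21 down-regulated (3.51%).

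The 12 largest rises were those of CSLG2, AT5G17090, AO4, AP3, AT5G60140, TPS04, AT1G66320, AT2G25330, AG, JRG21, AT1G70080 and GILT. CSLG2, a cellulose synthase-like gene, went from 17.1, 70 and 23.1 in Col to 5893, 8068 and 7188 in siFIE (log2 change 7.85, SE 0.43, adjusted p = 3.8e-06). AO4, an aldehyde oxidase gene, went from 101, 396 and 80.8 to 21138, 30329.5 and 29815 (log2 change 7.50, SE 0.50, adjusted p = 1.3e-05). Genes entered these 12 only where no siFIE pool overlapped Col, so the lack of overlap in both genes was set by the choice. TPS04, which encodes a terpene synthase, went from 33.3, 49.4 and 22.6 to 4116, 3673 and 1993 (log2 change 6.54, SE 0.33, adjusted p = 2.3e-06), with pool 3 at the low end. GILT, a thiol reductase gene, rose from 122, 213 and 74.9 to 7948, 8045 and 7006. JRG21, named as a jasmonate-regulated gene, rose from 57.5, 142 and 85.8 to 5341, 7276 and 4817. Folds of these genes differed between the deposited RMA values and the probe signals. By RMA CSLG2 rose 231-fold, AO4 181-fold and TPS04 93.3-fold, and without background correction 20.3-fold, 48.3-fold and 13.3-fold. AO4 was lower in clf swn than in siFIE (log2 difference 3.87, adjusted p = 2.3e-04 for siFIE minus clf swn), as were GILT (log2 difference 3.21, adjusted p = 6.4e-05) and CSLG2 (log2 difference 2.23, adjusted p = 0.0025).

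Floral organ identity genes were the list with the most members up-regulated in siFIE seedlings. Of 20 genes 16 rose and none fell, against 4.51% and 3.19% of all genes, and the median log2 fold change was 3.54 against -0.02 over all genes. Without background correction 13 were called. Most are MADS box genes, whose products combine to give sepals, petals, stamens and carpels. AP1, which specifies sepals and the floral meristem, went from 81, 106 and 96.3 in Col to 2638, 3853 and 4228 in siFIE. AP3, which specifies petals and stamens, went from 41.8, 58.8 and 26.6 to 3416, 5120.1 and 4064. PI, its partner, went from 199, 195 and 290.1 to 2649, 3879 and 3631. AG, which specifies stamens and carpels, went from 110.1, 136 and 77 to 5728, 7851 and 6858 (log2 change 6.01, SE 0.21, adjusted p = 3.7e-07). These genes cover all whorls of the flower. No Col pool reached a siFIE pool in any of them, as in 18.4% of all genes and nearly all up-regulated ones. For AP3 and AG, both among the 12 largest rises, this was set by the choice. The SEP genes act in all whorls as partners of the others. SEP3 gave 141, 176 and 165 in Col and 8472, 11222 and 9804 in siFIE (log2 change 5.93, SE 0.17, adjusted p = 2.2e-07). SEP1 (41.6-fold) and SEP2 (46.8-fold) rose too, while SEP4 gave 749.8, 845 and 759 in Col and 1232, 795 and 905 in siFIE and was not called. SHP1, SHP2 and STK, genes of the fruit and ovule, rose 35.6-fold, 38.7-fold and 17.7-fold.

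Smaller rises were seen for FUL (9.11-fold), CRC (7.12-fold), CAL (6.53-fold), AGL6 (4.34-fold), SUP (4.17-fold) and LFY (2.86-fold). CRC, a gene of carpels and nectaries, was uneven among the siFIE pools at 119.5, 544 and 391, against 33.1, 34 and 62.6 in Col. LFY, which switches meristems to flower formation, stayed dim at 89.7, 149.5 and 112 in siFIE and 37.9, 33.5 and 50.8 in Col. In all 3 settings built on scanner signals LFY was no longer called. SEP4, AGL13, UFO and INO were not called. UFO, which activates AP3 together with LFY, gave 90.4, 87 and 75.4 in Col and 78.9, 93.3 and 88.6 in siFIE.

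**Figure D2:**
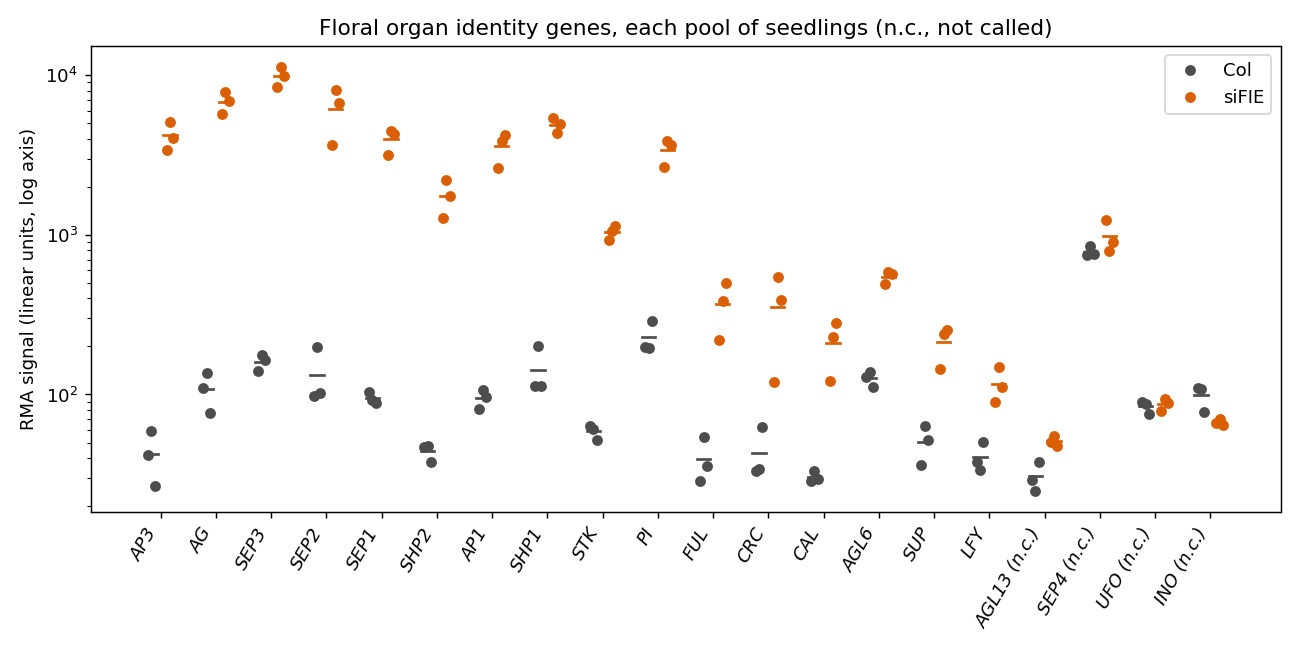
Each dot is the RMA signal of 1 pool (log axis) for the 20 floral organ identity genes, in order of fold change, with Col in grey, siFIE in orange and short lines at the means of 3 pools. In the 16 called genes every siFIE pool lies above every Col pool, as in 1363 of all 1370 up-regulated genes and 18.4% of all genes. SEP4, AGL13, UFO and INO were not called.

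Of 11 genes of the tapetum and pollen, most of them dim in Col with a median signal of 57.4, none rose and 1 fell (9.09%). Over all genes 4.51% rose and 3.19% fell, so these counts in a list this small lie near those shares. The gene that fell, 2.35-fold, was TPD1, a signal peptide of the anther that is also expressed in seedlings here. AMS, MS1, DYT1 and ACOS5, which define the tapetum, stayed at or under 216 in all 6 pools. The summed signal of the 11 genes was 9488 to 13211 in Col and 6562 to 7853 in siFIE.

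Flowering time genes moved in both directions. Of 23 genes 7 rose (30.4%) and 3 fell (13.0%), against 4.51% and 3.19% of all genes, with a median log2 fold change of 0.30. Among repressors of flowering, FLC went from 52.9, 61.6 and 73.7 in Col to 511, 553 and 467 in siFIE (log2 change 3.03, SE 0.14, adjusted p = 1.6e-06), and its relatives MAF4 and MAF5 rose 4.9-fold and 8.72-fold. MAF1, MAF2 and MAF3 were not called, with log2 fold changes of 0.07, -0.02 and -0.09. Other repressors fell. SVP, the partner of FLC, gave 10108, 8690.1 and 12086 in Col and 5174, 4964 and 4434 in siFIE. TEM2, a repressor of FT, gave 6270.0, 7076 and 8674 in Col and 1813, 2003 and 1662 in siFIE. SNZ, an AP2-like repressor, gave 3636, 4598 and 3348 in Col and 1182, 534 and 555 in siFIE. TOE1, of the same family as SNZ, also fell (2.51-fold), while TOE2 and TOE3 were not called.

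Among promoters of flowering, FT, the mobile signal made in leaves, went from 40.2, 49.4 and 68.9 to 447, 500.0 and 695 (log2 change 3.38, SE 0.24, adjusted p = 2.1e-05). SPL4, a factor of the phase change, went from 350.1, 508 and 381 to 2869, 2983 and 2705 (log2 change 2.81, SE 0.18, adjusted p = 9.6e-06), and AGL24 and AGL17 rose 2.13-fold and 27.6-fold. TFL1, which holds the shoot meristem indeterminate and delays flowering, rose 5.56-fold, to 869, 818 and 794 from 146, 129.6 and 174. SOC1, a target of FT and FLC, was not called (3915, 3897 and 4284 in Col and 4619, 4547 and 4516 in siFIE), nor were CO, GI, FD and TSF. The gene next to FLC, AT5G10150, fell 2.18-fold, with 742, 722 and 945 in Col and 328, 401 and 370.4 in siFIE. When a pool was left out the call was lost for SVP without Col 3 (log2 -0.95) and for AGL24 without Col 2 (log2 0.99). The call of AT5G10150 was absent in the 3 settings built on scanner signals.

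Regulators of the embryo and of seed maturation rose in part. Of 16 genes 6 rose (37.5%) and none fell, against 4.51% and 3.19% of all genes. Without background correction 5 and 0 were called, and the median log2 fold change by RMA was 0.13. WOX9, a homeobox gene of the embryo, went from 116, 194 and 117 in Col to 3015, 4699.9 and 4431 in siFIE (log2 change 4.84, SE 0.23, adjusted p = 1.8e-06). WOX2, which acts in the early embryo, went from 114, 94.4 and 95.4 to 408, 799 and 592. ABI3 and ABI4 are regulators of abscisic acid response in the seed. ABI3 rose from 61.8, 76.2 and 34.5 to 439.5, 692 and 477, and ABI4 rose from 27.6, 19.2 and 24.4 to 229.6, 254 and 234. ABI5 rose 3.08-fold and LEC2 2.85-fold. LEC1, FUS3, BBM and WOX8 were not called, with log2 fold changes between -0.78 and 0.09. None of the 3 settings built on scanner signals called LEC2.

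Of 17 genes of seed storage and oil bodies, products of the maturing embryo, 7 rose and 1 fell. These are 41.2% and 5.88%, against 4.51% and 3.19% of all genes. CRU3, a cruciferin gene, gave 28.2, 38.9 and 35 in Col and 358, 1871 and 1422 in siFIE. CRA1, another cruciferin gene, gave 64.9, 76.8 and 74.8 in Col and 544, 1280.3 and 937 in siFIE. Pool 1 was the lowest siFIE pool in each, and no siFIE pool overlapped Col. OLEO2, an oleosin of the oil body, gave 55.4, 84 and 45.4 in Col and 736, 647 and 891 in siFIE (log2 change 3.66, SE 0.22, adjusted p = 6.4e-06). EM1, a late embryogenesis gene, gave 175, 159 and 119.8 in Col and 1617, 1029.7 and 1489 in siFIE (log2 change 3.18, SE 0.20, adjusted p = 8.2e-06). SESA1 rose 13.6-fold, while SESA2 to SESA5, its close relatives, were not called, and near-identical members may share probe signal. CRU2 stayed at 41, 19.9 and 30.4. RAB18, a dehydrin gene that responds to drought, fell from 2742, 2927 and 3339.9 to 1331, 1317 and 1191. In clf swn the signal of ABI3 was 35989.6, 36336 and 39878 and that of OLEO2 50445, 46716 and 47249, above siFIE in each case (log2 difference -6.15 and -6.00 for siFIE minus clf swn, adjusted p = 2.4e-07 and 5.3e-08). Starting from the probe signals, XERO1 and OLEO1 were not called in any of the 3 settings tried.

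Genes of the shoot meristem and of organ boundaries rose by smaller amounts. Of 18 genes 7 rose (38.9%) and none fell, against 4.51% and 3.19% of all genes. The median log2 fold change was 0.91, but without background correction 2 were called. BOP1, a boundary gene, went from 397, 349 and 425 in Col to 1315, 1574 and 1566 in siFIE (log2 change 1.93, SE 0.13, adjusted p = 1.2e-05). PNY, a homeobox partner of STM, went from 3959, 3957 and 4229 to 8774, 10951 and 9971 (log2 change 1.28, SE 0.12, adjusted p = 1.1e-04). STM, which keeps the meristem undifferentiated, gave 473, 321 and 327 in Col and 773, 1511 and 1031 in siFIE, with pool 1 lowest. CUC1, LOB, KNAT2 and WUS rose 4.26-fold, 3.4-fold, 2.35-fold and 2.44-fold, and WUS, the stem cell gene, stayed dim at 106, 138 and 149.9. In all 3 settings built on scanner signals KNAT2 and WUS were no longer called. KNAT1, KNAT6, CUC3 and CUC2 were not called, at log2 0.93, 0.97, 0.89 and 0.64. None of 8 root meristem regulators was called, against 7.70% of all genes, and a count of 0 among so few lies near that share. Their log2 fold changes lay between -0.59 and 0.17.

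Of 11 TCP factors of class II, 3 rose and 3 fell (27.3% each), against 4.51% and 3.19% of all genes. Without background correction 1 rose and 1 fell. TCP2, TCP3 and TCP4, which limit cell division in leaves, fell 2.09-fold, 2.09-fold and 3.07-fold. TCP4 gave 5526, 4873 and 7434 in Col and 2015, 1878 and 1829.7 in siFIE (log2 change -1.62, SE 0.25, adjusted p = 0.0016). TCP1, TCP12 and TCP18, of the branch that acts in flower symmetry and axillary buds, rose 3.17-fold, 3.06-fold and 4.98-fold. TCP18, known as BRC1, went from 50.8, 60.7 and 40.7 to 141, 326 and 339 (log2 change 2.32, SE 0.33, adjusted p = 0.001). TCP5, TCP10, TCP13, TCP17 and TCP24, of the same branch as TCP4, were not called, with log2 fold changes of -0.20, -0.38, 0.59, 0.81 and -0.44. Of 14 leaf polarity genes YAB5 alone was called (7.14%), against 7.70% of all genes. It gave 494, 439 and 467 in Col and 113, 68.5 and 70.3 in siFIE (log2 change -2.51, SE 0.19, adjusted p = 2.6e-05). Leaving out a pool ended the call for TCP2 without Col 1 (log2 -0.97) and for TCP3 without Col 3 (log2 -0.95). The call of TCP12 was absent in the 3 settings built on scanner signals.

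Hormone genes were called in smaller numbers. Of 21 genes of auxin synthesis and transport none rose and 4 fell (19.0%), against 4.51% and 3.19% of all genes. YUC2, an enzyme of auxin synthesis, went from 432, 406 and 494 in Col to 85.4, 90.4 and 92.6 in siFIE (log2 change -2.31, SE 0.18, adjusted p = 2.9e-05). The efflux carriers PIN3, PIN4 and PIN7 fell 3.12-fold, 2.39-fold and 2-fold. PIN3, which carries auxin during tropisms, gave 6577, 6137 and 9265 in Col and 2287, 2483 and 2178 in siFIE. In gibberellin metabolism GA3OX1, which makes the active hormone, fell from 7769.9, 7326 and 7299.7 to 3640.1, 3282 and 2928. GA2OX2, which inactivates the hormone, rose from 1513, 1582 and 1469 to 2995, 3762 and 3862. The other called members of the 15 were GA2OX1, which fell 2-fold, and GA2OX7, which rose 2.16-fold, and both were dim. Of the 15, 13.3% were thus up-regulated and 13.3% down-regulated. In cytokinin metabolism and response 3 of 19 genes rose (15.8%) and 1 fell (5.26%). Those that rose were the synthesis genes IPT1 (2.87-fold) and IPT3 (2.05-fold) and the oxidase gene CKX3 (2.15-fold), and the response regulator ARR16 fell 2.12-fold. Without 1 of the pools the call ended for PIN7 without Col 1, Col 3 or siFIE 1 (log2 -0.998 to -0.95), for GA2OX1 without Col 1, Col 2 or siFIE 2 (log2 -0.97 to -0.88), for GA2OX7 without Col 1, Col 3, siFIE 1, siFIE 2 or siFIE 3 (log2 0.80 to 1.24), for IPT3 without siFIE 3 (log2 0.93), for CKX3 without Col 1, Col 2, siFIE 2 or siFIE 3 (log2 0.88 to 1.04) and for ARR16 without Col 2 or siFIE 2 (log2 -0.95 to -0.85). None of the 3 settings built on scanner signals called GA2OX1, GA2OX7, IPT1, IPT3, CKX3 and ARR16.

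Jasmonate genes were the list with the second highest median in siFIE. Of 13 genes 8 rose (61.5%) and none fell, against 4.51% and 3.19% of all genes. The median log2 fold change was 1.23, and 6 were called without background correction. Jasmonate is the hormone of wounding and of insect attack, and JAZ proteins repress its response while being induced by it. JAZ10 went from 265, 172 and 233 in Col to 2659, 6025 and 5835 in siFIE (log2 change 4.37, SE 0.30, adjusted p = 1.5e-05). JAZ1 went from 7564, 8604 and 8334 to 17472, 30507 and 28534 (log2 change 1.60, SE 0.19, adjusted p = 4.4e-04). Defence proteins downstream rose as well. THI2.1, a thionin, went from 129, 97.4 and 67.1 to 1763, 2957 and 3525 (log2 change 4.80, SE 0.34, adjusted p = 1.9e-05). VSP1, a vegetative storage protein, went from 15796, 19326 and 16874 to 44562, 52666 and 45544, and its neighbour VSP2 went from 3903, 3991 and 3790.0 to 9814, 9183 and 8539. PDF1.2, a defensin, gave 229.6, 67.8 and 162 in Col and 4595, 684 and 778 in siFIE, with pool 1 above the others.

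Among the enzymes that make jasmonate, LOX3 went from 862, 1009.6 and 1224 to 2809, 10072 and 8420.3. OPR3, which acts later in the pathway, went from 3773, 3759 and 4248 to 5462, 9795 and 11282. LOX2, AOS, AOC1 and AOC2, which act in the same pathway, were not called and gave log2 fold changes of 0.12, -0.61, -0.51 and -0.72. MYC2, the main activator of the response, gave 0.64 and was not called. When a pool was left out the call was lost for OPR3 without siFIE 3 (log2 0.90). Starting from the probe signals, OPR3 was not called in any of the 3 settings tried. In LOX3, OPR3, JAZ1, JAZ10 and THI2.1 pool 1 was the lowest of the siFIE pools. The genes JAZ10, JAZ1, VSP1, VSP2 and THI2.1 were lower in clf swn than in siFIE. For siFIE minus clf swn the log2 difference was 1.96 for JAZ10, 1.44 for JAZ1, 1.96 for VSP1, 1.41 for VSP2 and 2.43 for THI2.1, with adjusted p from limma of 6.4e-04, 2.9e-04, 5.9e-06, 9.6e-06 and 3.7e-04. The selection on kanamycin, stated for siFIE alone, cannot be told apart from the construct here.

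Salicylate and defence genes were mixed, with 3 of 12 up-regulated (25%) and 1 down-regulated (8.33%), against 4.51% and 3.19% of all genes. PAD3, an enzyme of camalexin synthesis, rose from 1020.4, 848 and 991 to 2681, 3001 and 2433 (2.84-fold, adjusted p = 5.5e-05), and EDS5, a transporter needed for salicylate, from 1762, 1658 and 1593 to 3412, 4557 and 5683. WRKY70, a factor between the salicylate and jasmonate pathways, fell from 15069.6, 12124 and 15164 to 4545, 5265 and 4565 (log2 change -1.55, SE 0.15, adjusted p = 1.4e-04). PR2 rose 2.3-fold, while PR1 and ICS1 were not called (log2 -0.23 and -0.43). Of 18 glucosinolate genes 4 rose (22.2%) and 1 fell (5.56%). The median log2 fold change of these 18 was -0.02, with 8 above and 10 below 0. CYP79B2, MYB51 and MYB122, of the indole branch, rose 2.41-fold, 2.06-fold and 3.49-fold, while MYB34, CYP79B3 and CYP83B1 of that branch were not called. MYB76, of the aliphatic branch, fell 2.72-fold, and MYB28 and MYB29 of that branch were not called. AOP3 rose 3.35-fold. Leaving out a pool ended the call for PR2 without Col 2 or siFIE 2 (log2 0.83 to 1.07) and for MYB51 without Col 2 (log2 0.99). In all 3 settings built on scanner signals PR2 and MYB51 were no longer called.

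**Figure D3:**
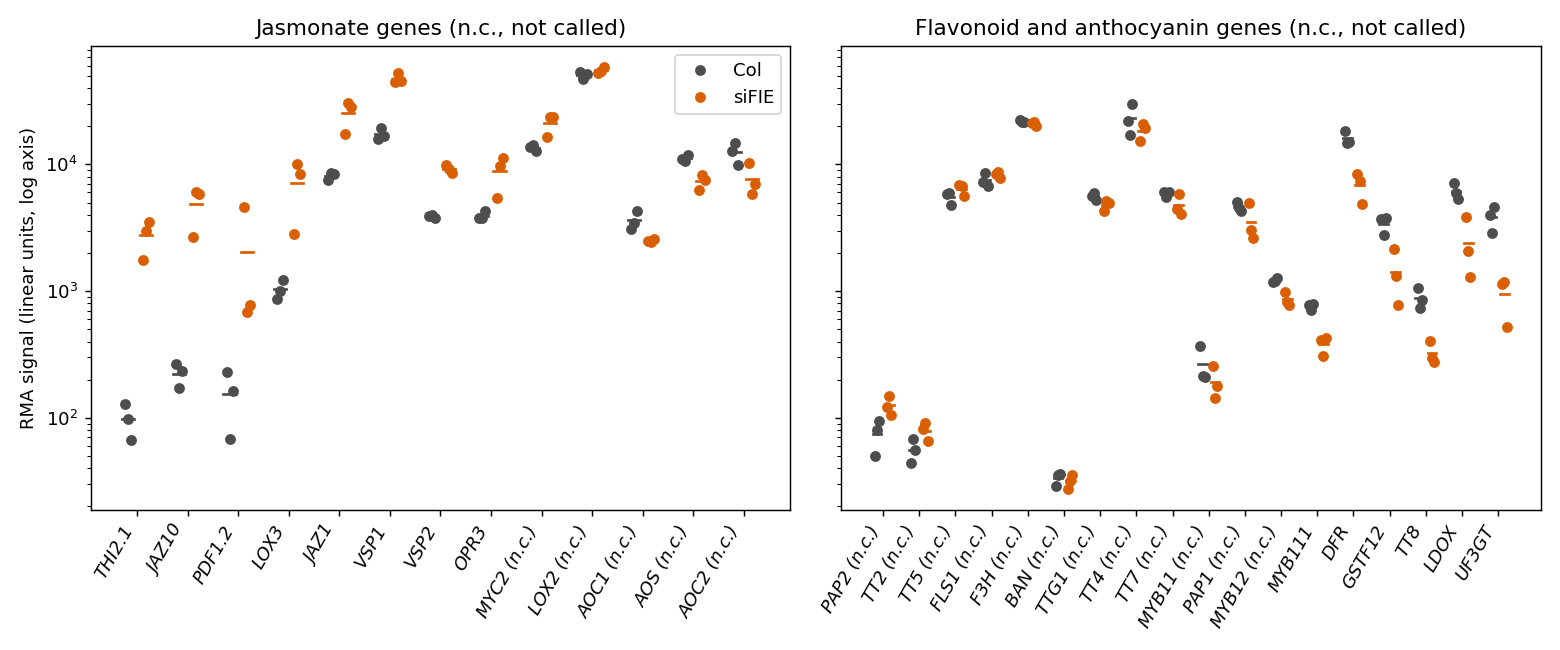
Each dot is the RMA signal of 1 pool (log axis) for 13 jasmonate genes and 18 flavonoid and anthocyanin genes, each in order of fold change, with Col in grey, siFIE in orange and short lines at the means of 3 pools. From THI2.1 to OPR3, 8 jasmonate genes were called higher in siFIE, and from MYB111 to UF3GT, 6 flavonoid and anthocyanin genes were called lower.

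Some anthocyanin genes were lower in siFIE. Of 18 genes of the flavonoid pathway none rose and 6 fell (33.3%), against 4.51% and 3.19% of all genes. The median log2 fold change was -0.37, and 4 were called without background correction. Of the 6, DFR, LDOX, UF3GT and GSTF12 act late in the pathway, TT8 activates late steps, and MYB111 regulates flavonol synthesis. PAP1, an activator of the pathway, PAP2, its close relative, and BAN, an enzyme of seed coat pigments, were not called, with log2 fold changes of -0.44, 0.78 and -0.08. DFR went from 18242, 14849.8 and 14922 in Col to 8379, 7444 and 4899 in siFIE (log2 change -1.24, SE 0.23, adjusted p = 0.0049). LDOX, the next enzyme, went from 7144, 5978 and 5294 to 3822, 2088 and 1303. UF3GT, which adds a sugar to the pigment, went from 4012, 2863 and 4603 to 1137, 1186 and 517 (log2 change -2.08, SE 0.32, adjusted p = 0.0017). GSTF12, which carries it to the vacuole, went from 3699.9, 2776 and 3761 to 2130.4, 1305 and 775. Pool 3 was the lowest of the siFIE pools in each. TT8, their bHLH activator, went from 1060.5, 739 and 856 to 405, 296 and 275 (log2 change -1.45, SE 0.18, adjusted p = 4.6e-04). The early enzymes TT4, TT5, F3H and TT7 were not called, with log2 fold changes of -0.30, 0.22, -0.06 and -0.31. Without 1 of the pools the call ended for LDOX without Col 1, Col 2, Col 3, siFIE 2 or siFIE 3 (log2 -1.58 to -1.11), for GSTF12 without Col 1, Col 3, siFIE 2 or siFIE 3 (log2 -1.40 to -1.02) and for MYB111 without Col 1, Col 3 or siFIE 2 (log2 -0.99 to -0.86). The call of MYB111 was absent in the 3 settings built on scanner signals.

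The 12 largest falls were those of AT2G15020, ANK, GIS, NIG1, NUDT24, GolS2, CYP706A6, AT2G27420, AT5G54585, ACD6, BHLH101 and PCC1. AT2G15020 went from 10499.7, 9818 and 9183 in Col to 585, 274 and 188 in siFIE (log2 change -4.98, SE 0.35, adjusted p = 1.9e-05). GIS, a zinc finger factor of trichome formation, went from 969, 815 and 1092 to 58.4, 73.2 and 47.7 (log2 change -4.02, SE 0.19, adjusted p = 1.7e-06). NIG1, a bHLH factor, and NUDT24, a Nudix hydrolase, fell 16.1-fold and 13.3-fold. ACD6, an ankyrin protein of immunity, went from 39897, 34756 and 30160.3 to 4867, 4263 and 2928 (log2 change -3.14, SE 0.25, adjusted p = 3.4e-05). PCC1, a gene of pathogen response and the circadian clock, gave 3570.2, 2412 and 3442 in Col and 649.6, 443 and 152 in siFIE, with pool 3 lowest. GolS2, a galactinol synthase of drought response, gave 642, 607 and 670.2 in Col and 62.1, 86.4 and 52 in siFIE. Without background correction the falls of ACD6 and NUDT24 were 7.96-fold and 8.29-fold, against 8.83-fold and 13.3-fold by RMA, and that of GolS2 was 2.82-fold against 9.79-fold.

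Photosynthesis genes, which mark leaf tissue, had log2 fold changes below 0 in 24 of 24 genes. The median was -0.62, against -0.02 over all genes. Of the 24, 5 were called down-regulated (20.8%) and none up-regulated, against 3.19% and 4.51% of all genes. The summed signal of the 24 was 785678 to 820863 in Col and 576490.0 to 627228 in siFIE. PORC, an enzyme of chlorophyll synthesis, went from 14595, 13777 and 17319.9 to 6607, 7307 and 6473 (log2 change -1.16, SE 0.15, adjusted p = 5.8e-04), and LHCB2.2, an antenna protein, from 2667, 2359 and 2617 to 1184, 949 and 937. PORA (2.61-fold), RBCS1B (2.04-fold) and CAB2 (3.02-fold) were the others. CAB2 has the near-identical neighbours CAB1 and CAB3, which were not called, so the assignment of signal within this family is uncertain. Root hair and root markers were also below 0 in 12 of 12 genes, with a median of -0.63 and a summed signal of 65955 to 74519.8 in Col and 35573 to 57011 in siFIE. RSL4, a regulator of root hair growth, and NRT2.1, a nitrate transporter, were called, at 2.02-fold and 2.4-fold lower. They are 16.7% of the 12, against 3.19% of all genes. When a pool was left out the call was lost for RBCS1B without Col 1, Col 2, Col 3, siFIE 2 or siFIE 3 (log2 -1.07 to -0.82), for RSL4 without Col 3 or siFIE 1 (log2 -0.86 to -0.74) and for NRT2.1 without Col 1 (log2 -1.10). None of the 3 settings built on scanner signals called RBCS1B, CAB2 and RSL4. Leaf and root markers therefore moved in the same direction beside the falls listed above, and their part in those falls was not tested.

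**Figure D4:**
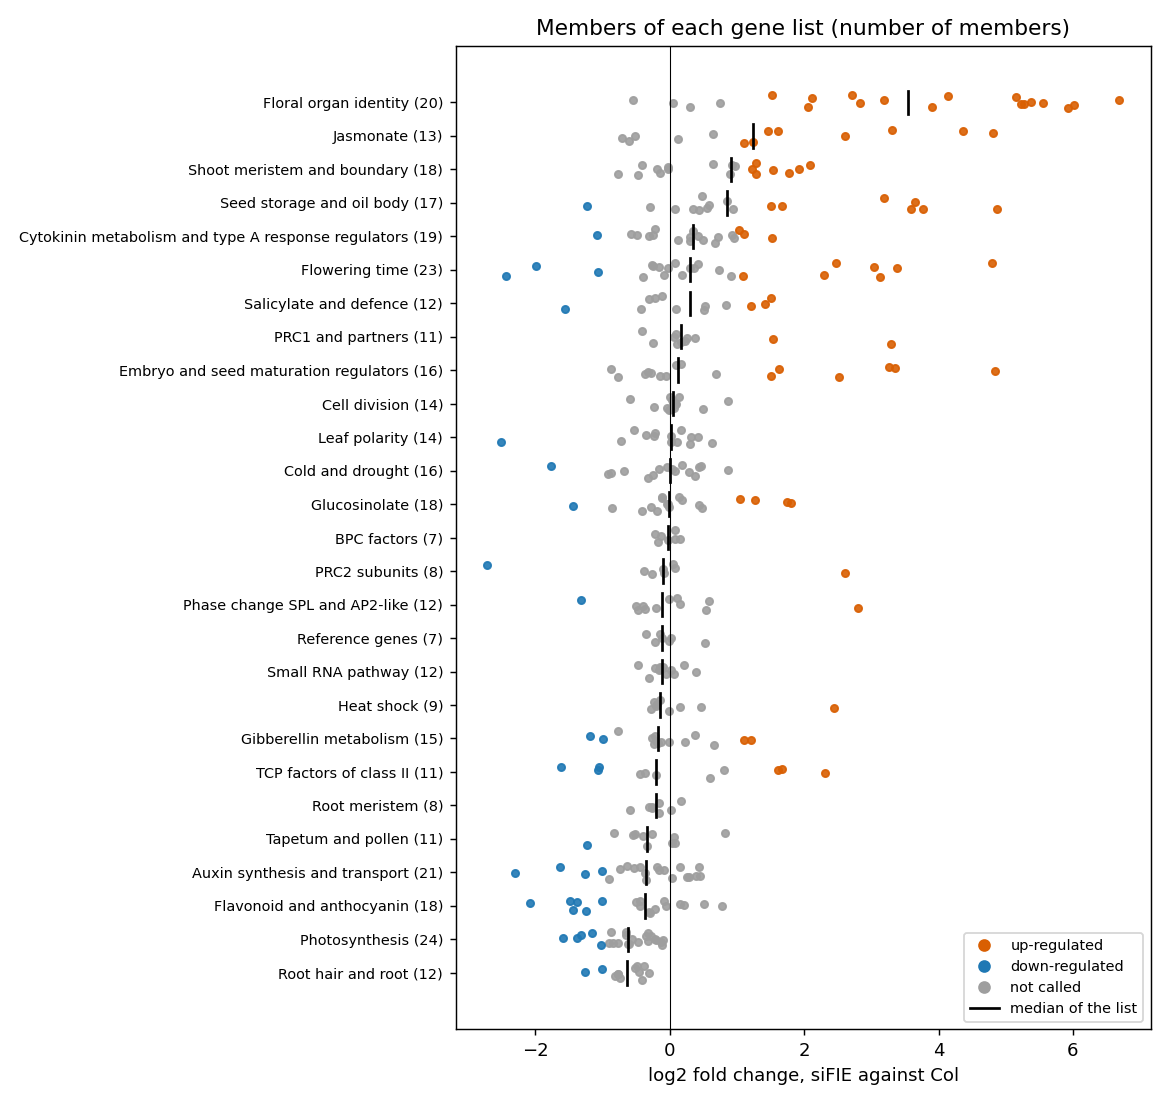
Each dot is the log2 fold change of 1 gene in siFIE against Col (x axis), in 27 gene lists with their number of members (y axis), ordered by the median, which is the black line. Orange and blue dots are genes called up-regulated and down-regulated, and the floral and jasmonate lists stand at the top with medians of 3.54 and 1.23.

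Some lists had no called member. None of 14 cell division genes, 12 genes of the small RNA pathway and 7 reference genes was called in either direction. Over all genes 7.70% were called, so a count of 0 in lists this small lies near that share. The small RNA genes were listed because the plants carry an RNAi construct, and their log2 fold changes lay between -0.48 and 0.39. The reference gene ACT2 gave 40616, 39866 and 40837 in Col and 38224, 37019.6 and 37028 in siFIE, and GAPC1 gave 40960.5, 37409.7 and 48097 in Col and 37852, 47111 and 42558 in siFIE. Of 9 heat shock genes HSP18.2 alone was called, from 169, 129 and 111 to 711, 722 and 757 (log2 change 2.44, SE 0.20, adjusted p = 4.6e-05). Of 16 genes of cold and drought CBF2, a cold response factor, alone was called, from 1585, 1315 and 1866 to 578, 489 and 352 (log2 change -1.76, SE 0.21, adjusted p = 3.8e-04), with CBF1 and CBF3 at log2 -0.03 and -0.33.

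Called genes were in part neighbours on the chromosome. In the gene order of the TAIR10.1 annotation, 132 runs of at least 2 neighbours were up-regulated together, which hold 292 genes. A further 55 runs with 123 genes were down-regulated together. With 4.51% and 3.19% of all genes called, some runs arise in any order of genes. How many was not computed, so these counts do not show clustering. The longest up-regulated run was AT3G21000 to AT3G21040, 5 genes with rises of 5.71-fold to 15.6-fold. In it AT3G21030 gave 223, 191 and 229 in Col and 2313, 2306 and 2310.2 in siFIE, and AT3G21040 gave 289, 314 and 303 in Col and 4135, 5246 and 4557 in siFIE. The longest down-regulated run was AT1G29420 to AT1G29460, 5 genes of the SAUR family of auxin-induced growth genes, with falls of 2.12-fold to 5.87-fold. SAUR63, the named member, gave 284, 495 and 361 in Col and 91.8, 65.8 and 81.6 in siFIE (log2 change -2.23, SE 0.22, adjusted p = 1.2e-04). A run of 4, AT1G66290 to AT1G66320, ended in AT1G66320, which went from 27.1, 57.5 and 39.8 to 3054, 3666 and 3566 (log2 change 6.43, SE 0.24, adjusted p = 6.0e-07). Neighbours of a family can share sequence, so signals within a run may not be independent. Leaving out a pool ended the call for AT1G29460 without Col 2 or siFIE 2 (log2 -0.99 to -0.89). Starting from the probe signals, AT1G29420, AT1G29460 and AT1G66310 were not called in any of the 3 settings tried.

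The siFIE pools differed from each other in some called genes. The 5 called genes with the widest range were DDF2, TIR, DDF1, RRTF1 and SCPL30. RRTF1, an ERF factor of redox response, gave 2118, 16704 and 11347 in the siFIE pools and 209, 371 and 185 in Col, so the groups did not overlap although pool 1 was far below the others (log2 change 4.93, SE 0.72, adjusted p = 0.0013). DDF1 and DDF2, factors related to the CBF genes, were low in pool 1 and high in pools 2 and 3. DDF2 gave 38.8, 855 and 900.2 against 25.9, 33.9 and 26 in Col (log2 change 3.45, SE 1.02, adjusted p = 0.041), and DDF1 254, 2504 and 2475 against 143, 276 and 197. In DDF1 pool 1 lay within the Col range. TIR, a gene of the TIR domain family of immunity, was lowest in pool 2, at 3263, 278 and 2855 against 9669.9, 7272 and 10692 in Col. SCPL30, a carboxypeptidase-like gene, was highest in that pool, at 226, 1633 and 279 against 39.7, 73.7 and 61. Without 1 of the pools the call ended for DDF2 without Col 1, Col 2, Col 3, siFIE 2 or siFIE 3 (log2 2.68 to 3.58), for TIR without Col 1, Col 2 or Col 3 (log2 -2.89 to -2.61) and for DDF1 without Col 1, Col 2, Col 3, siFIE 2 or siFIE 3 (log2 2.00 to 2.79). With the spread estimated from the 6 arrays of siFIE and Col alone, limma also called none of DDF2, TIR and DDF1 (adjusted p = 0.077, 0.073 and 0.081). Over all genes the median SD of the log2 signal was 0.17 among Col pools and 0.18 among siFIE pools, and over up-regulated genes 0.22 and 0.25.

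**Figure D5:**
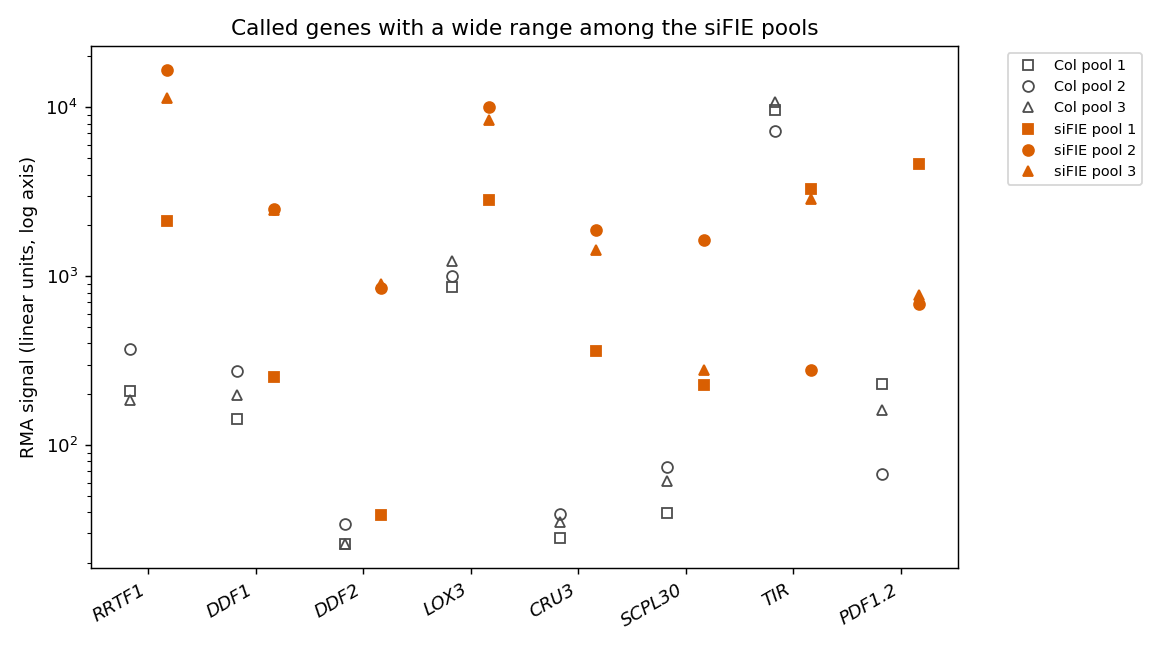
The RMA signal (log axis) of each Col pool (open symbols) and each siFIE pool (filled symbols) is shown for 8 called genes with unequal siFIE pools. Pool 1 lies lowest among the siFIE pools in RRTF1, DDF1, DDF2, LOX3, CRU3 and SCPL30 and highest in TIR and PDF1.2.

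Called genes were not spread evenly over the range of signals. Genes were ordered by mean log2 signal over all 9 arrays, those of clf swn included, and split into 4 equal groups. The siFIE signals enter this mean, so the group of a gene depends in part on its change. In the dimmest group 1.57% were up-regulated and 0.883% down-regulated, in the next group 10.4% and 7.38%, in the next 4.81% and 3.58%, and in the brightest group 1.28% and 0.909%. The group after the dimmest spans mean signals from 84.7 to 1110.4.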

How the data were processed

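The authors deposited, for each of 9 arrays, the scanner intensity of each 60-mer probe without normalization, written by NimbleScan 2.4.31 per the file headers, and an RMA signal per gene, an intensity on a linear scale. The submitters' processing notes name RMA. No source used here names its software or settings. RMA signals were log2 transformed and fitted with limma 3.58.1 in R 4.3.3 (lmFit and eBayes, 3 group means over 9 arrays, two-sided, Benjamini-Hochberg over 30361 genes). The step was tested on simulated data. Slide was not used as a block, and replicate numbers were not used as pairs in the main fit. The median scanner signal was highest in Col 2 and siFIE 2 (2370 and 2168). Whether arrays of different groups shared a processing batch was not tested. Summaries used Python 3.11.15, numpy 2.4.6 and pandas 2.3.3. Symbols came from the RefSeq annotation of TAIR10.1, in which 29976 of 30361 loci and 10355 symbols were matched, and 386 of 391 listed loci were used, the others having another symbol or none there.

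The genes named are FIE and those measured by RT-qPCR in the study, the 12 largest rises and 12 largest falls with no overlap between pools, in each list the called members with the smallest p, up to 5 (in lists of at most 8 genes, all), the 3 longest runs and the 5 called genes with the widest range among siFIE pools. Others, such as CRU3, LOX3, TCP4 and SVP, were named after their values were seen. The comparison, the lists and the families were chosen with earlier results of these data known. Alternatives were normexp background correction (offset 50) with quantile normalization or median scaling of the probe signals, no background correction, the value table of the series, a second quantile normalization, leaving out genes under the 25th percentile, the 6 arrays alone, other fold thresholds, replicate number as a block, and leaving out each array. Promoters were not searched for motifs, since no promoter sequence was at hand. The value of 1 listed gene is not reported here.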

Additional observations from a re-analysis of the deposited data

How the results depend on the processing

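Up-regulated and down-regulated genes numbered 1370 and 968 by RMA, and 939 and 612 with normexp and quantile normalization of the probe signals, 863 and 640 with normexp and median scaling, 683 and 443 without background correction, 3102 and 3047 with no fold threshold, and 458 and 135 at more than 4-fold. Leaving out each array gave 1263 to 1503 and 888 to 1061, the lowest without siFIE 3 and the highest without siFIE 1. The value table of the series, a second quantile normalization, leaving out the dimmest 25%, and the 6 arrays alone moved neither count by 1.5 times. Pools of Col and siFIE are different plants, so replicate numbers mark no shared plants. Deviations of same-numbered pools correlated at 0.04, -0.15 and -0.16, and those of the other pairs at -0.046 to 0.197. These values do not show whether pools shared a batch. With the replicate number as a block the counts were 1361 and 956, and of the named genes LDOX (adjusted p = 0.0503) and GA2OX7 (adjusted p = 0.057) were no longer called by limma. Of 149 named genes 120 were called, and 101 of these kept the call without any 1 array, 79 in all 3 settings built on scanner signals and 113 in the remaining settings. The other 29 were not called in any setting.

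Without background correction the members called were 0 up and 0 down for PRC2 subunits, 0 down for seed storage, 2 up for shoot meristem, 1 up and 1 down for TCP factors, 0 up and 1 down for gibberellin, 0 up and 0 down for cytokinin, 2 up and 0 down for glucosinolate, 2 down for photosynthesis and 1 down for root hair and root. Without the dimmest 25% of genes they were 0 up for PRC2 subunits, 1 up and 1 down for gibberellin and 0 down for cytokinin. The cause of these differences was not tested. With the 6 arrays alone gibberellin had 1 up. For the other list counts these settings gave values within 1.5 times. No result changed direction. The number of arrays limits the precision.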

Other observations

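Gene families taken by name from the reference annotation, by words chosen after values had been seen, hold further groups with called members in siFIE, beside 4.51% up-regulated and 3.19% down-regulated over all genes. Of 72 WRKY factors, which act in defence and senescence, 17 were up-regulated and 2 down-regulated (9 and 1 without background correction). WRKY18 gave 1897, 2032 and 2221 in Col and 8233, 12711 and 12480.0 in siFIE, and WRKY75 gave 1361, 1907 and 1027 in Col and 6839, 5004 and 5424 in siFIE. Of 12 JAZ repressors 6 rose and none fell (5 and 0 without background correction). Of 102 MADS box genes 23 rose and 4 fell (17 and 2 without background correction), and among those outside the floral and flowering lists were AGL72 (16.7-fold) and AGL44 (10.6-fold). Of 104 NAC factors 10 rose and none fell (5 and 0 without background correction).

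Growth genes were among the falls. Of 79 SAUR genes 22 were down-regulated and 5 up-regulated (9 and 1 without background correction), and those down-regulated include SAUR19, SAUR20, SAUR22, SAUR23, SAUR24 and SAUR26 to SAUR29. SAUR20 gave 1601, 1983 and 1713 in Col and 259, 295 and 306 in siFIE (adjusted p = 4.8e-06 from limma), and SAUR24 gave 1383, 1861 and 1529 in Col and 192, 263 and 282 in siFIE. These genes are close copies of each other, so the assignment of signal within the family is uncertain. Of 37 genes annotated as expansins or their relatives, a family that loosens cell walls, 8 fell and 3 rose (6 and 1 without background correction). EXPA8 gave 9794, 8274 and 8308 in Col and 1215, 935 and 1176 in siFIE, while the 3 that rose were EXLA1, EXLA2 and EXLA3 of the expansin-like group. EXLA2 was not called without background correction, and EXLA3 was called neither in the 3 settings built on scanner signals nor without siFIE 3 (log2 0.99). PRE1, a factor that promotes cell elongation, gave 676, 657 and 701 in Col and 98.8, 139 and 212 in siFIE.

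BHLH38, BHLH39, BHLH100 and BHLH101, factors induced by lack of iron, all fell. BHLH38 gave 5796, 5062 and 5745 in Col and 1390.1, 1179.9 and 949.9 in siFIE, and BHLH39 gave 9203, 6294 and 10264 in Col and 2036, 2992 and 1905 in siFIE. BHLH100 gave 7775, 7089.5 and 6858 in Col and 2006, 1379 and 1058 in siFIE, and BHLH101 gave 1258, 1079 and 1156 in Col and 262, 109 and 80.5 in siFIE. IRT1, which takes up iron in the root, gave 6942, 10840.0 and 10079 in Col and 4579, 9840.1 and 7036 in siFIE and was not called (adjusted p = 0.33 from limma). FRO2, which reduces iron for uptake, gave 10284, 14323 and 13586 in Col and 6506, 10963 and 8723 in siFIE and was not called either (adjusted p = 0.14 from limma).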
